A study of Mus musculus with 36 samples.

Results

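The 9 tight junction genes described here are Cldn1, Cldn2, Cldn3, Cldn5, Cldn12, Cldn14, Ocln, Tjp1 and F11r, out of 24421 genes counted in mouse liver. They were chosen by symbol, and all 9 were found in every one of the 36 libraries and passed the filter for low counts in every fit. Because the list was drawn up with results of these data known, and with the difference of Cldn1 between the groups among them, the 9 genes are described with their values and errors and without p-values. Where the text says that a test called a member, or did not, this is a description and adds no support. Tests are given for 87 other junction genes, which were listed by what their proteins do but likewise with results of these data known.

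Tight junctions are belts of protein that seal the gap between neighbouring epithelial cells and, in the liver, close the bile canaliculus between hepatocytes so that bile and blood stay apart. Claudins span the membrane and set which ions and solutes pass between the cells, with claudin-1 among the sealing members and claudin-2 forming pores for cations and water. Occludin (Ocln) is another membrane-spanning component, JAM-A (F11r) is an immunoglobulin-type adhesion molecule, and ZO-1 (Tjp1) is the scaffold on the inner side that ties these proteins to actin.

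All 36 mice were male C57BL/6J mice that had been kept for 12 weeks on the CDAHFD, a fat-rich diet that lacks choline and produces steatohepatitis. In one experiment they were then moved to the HFD, a diet rich in fat, and over 2 weeks received once a week either Fc at 4.3 mg/kg (10 mice) or Fc(mML1)B3 at 5 mg/kg (10 mice). In the other they were switched to a standard diet for 10 days and received Fc at 4.3 mg/kg (9 mice) or Fc(mML1)B3 at 5 mg/kg (7 mice) on days 1, 4 and 7. Fc is the constant fragment of an antibody, made of paired chains. Fc(mML1)B3 carries in 1 loop of each chain the sequence of a cyclic peptide that binds Met, the receptor of hepatocyte growth factor. The paper reports that display of the peptide on both chains turns this binder into an activator of Met. The comparison within each experiment asks what the Met agonist did to liver RNA. Diet goes together with the experiment and the dosing schedule, and these cannot be told apart. How the libraries of the experiments were divided over sequencing runs is not given, so a difference in sequencing cannot be set apart either. By the methods the mice were 7 weeks old when obtained, before the CDAHFD, while the labels give no age. No group was free of the CDAHFD, and whole liver was sequenced.

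Each library is 1 mouse, with 14949035 to 28466853 counted reads and a median of 23558194.5. The hepatocyte list (8 genes, albumin included) summed to between 76010 and 158000 CPM (reads scaled to a common library size) in every library, with albumin alone at 55800 CPM or more, and the bile duct list (8 genes) to between 186.5 and 871.8 CPM. In bulk liver, fewer cells of a type and less RNA per cell cannot be told apart. Numbers in the file names break after mouse 4 in both HFD groups, running from 7 to 10 and then from 1 to 6 with Fc, and from 1 to 4 and then from 1 to 6 with Fc(mML1)B3. Whether mice 1 to 4 of both groups, or mice 5 to 10 of both, were sequenced together is not given in the sources used here. The standard diet libraries of Fc fall likewise into mice 1 to 5 and mice 6 to 9, of which the latter run on into the numbers of the Fc(mML1)B3 mice. Values within these series are given where they bear on a result.

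On mm10, 3 of the 9 genes lie on chromosome 16 (Cldn1 at 26356646 to 26371839 and Cldn14 at 93919031 to 94008837, both on the minus strand, and Cldn5 at 18776847 to 18778262 on the plus strand). Chromosome 5 holds Cldn3 (134986214 to 134987476, plus strand) and Cldn12 (5505015 to 5514976, minus strand). Cldn2 lies on chromosome X (139800808 to 139811388, plus strand), Ocln on chromosome 13 (100497367 to 100552498, minus strand), Tjp1 on chromosome 7 (65296165 to 65371244, minus strand) and F11r on chromosome 1 (171437561 to 171464593, plus strand). Cldn3 and Cldn5 are genes of a single exon. The exon of Cldn3 overlaps that of Wbscr25 on the opposite strand, and since the counting did not use the strand, reads of this pair cannot be assigned to either gene with certainty.

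The promoters of Cldn1 and of the junction genes Tjp3 and Cgn are shown because the RNA of the 3 genes moved together, as described further on. Each sequence is the 250 bases before the most upstream RefSeq start (GRCm38.p6, the assembly of mm10), read 5′ to 3′ on the gene's strand, with capitals marking every CACGTG (E-box), AGGTCA (half-site of nuclear receptors of the ROR and REV-ERB type) and GGGCGG (GC box) on either strand. These motifs were picked with the sequences in view.
Cldn1, chr16:26371840-26372089, minus strand: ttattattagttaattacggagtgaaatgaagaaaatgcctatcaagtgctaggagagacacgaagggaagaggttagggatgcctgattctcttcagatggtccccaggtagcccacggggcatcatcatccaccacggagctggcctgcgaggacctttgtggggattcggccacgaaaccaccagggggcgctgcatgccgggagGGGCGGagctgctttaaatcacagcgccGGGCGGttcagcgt
Tjp3, chr10:81291582-81291831, minus strand: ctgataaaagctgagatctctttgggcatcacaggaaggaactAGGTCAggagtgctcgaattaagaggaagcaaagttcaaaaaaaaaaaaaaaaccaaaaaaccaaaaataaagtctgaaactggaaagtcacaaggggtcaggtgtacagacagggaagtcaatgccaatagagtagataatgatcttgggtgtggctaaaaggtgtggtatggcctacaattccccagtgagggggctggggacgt
Cgn, chr3:94786483-94786732, minus strand: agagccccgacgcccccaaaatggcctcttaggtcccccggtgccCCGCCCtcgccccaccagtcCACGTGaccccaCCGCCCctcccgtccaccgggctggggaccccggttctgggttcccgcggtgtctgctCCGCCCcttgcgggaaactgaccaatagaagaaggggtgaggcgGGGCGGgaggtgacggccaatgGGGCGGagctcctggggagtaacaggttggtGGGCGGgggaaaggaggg
The Cldn1 window holds 2 GC boxes and no match to the other motifs, the Tjp3 window 1 half-site, and the Cgn window 1 E-box and 6 GC boxes. In the annotation used for counting, Cgn reaches to 94786515. The last bases of its window, with the GC box nearest to the start, therefore lie inside the counted gene. A second Tjp3 start has 1 E-box in its window. Among all 32851 RefSeq windows of this length, 6.02% hold an E-box, 14% a half-site and 32.7% a GC box. Of the 14 windows of the 9 tight junction genes, none holds an E-box. A GC box occurs in windows of 7 of the 9 genes and a half-site in windows of 2, Cldn14 and Ocln. None of the 3 motifs occurs in all 3 windows shown, and nothing about the factors that bind there can be read from these letters.

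Per length of exon, Cldn3 was the most abundant of the 9 in every group. In the Fc mice on HFD it stood at 77.7 ± 12.7 RPKM (CPM per kilobase of exon; SD, n = 10), followed by F11r at 35.6 ± 3.90, Cldn2 at 31.9 ± 8.42, Cldn12 at 18.4 ± 1.90 and Cldn1 at 12.6 ± 2.48. Below these came Cldn5 at 7.47 ± 1.17, Tjp1 at 6.20 ± 0.659, Ocln at 6.05 ± 1.52 and Cldn14 at 3.90 ± 1.21 RPKM. The ranges over mice left a gap below Cldn3 and again between Cldn1 and Cldn5, whereas every other pair of neighbours in this order overlapped. Cldn1 changed its place in the order. Its RPKM of 30.1 ± 10.2 in the Fc(mML1)B3 mice on HFD (n = 10) and of 24.6 ± 3.97 in the Fc mice on the standard diet (n = 9) put its mean above that of Cldn12, although in both groups its range overlapped that of Cldn12 as well as that of Cldn2 or F11r. Its RPKM of 13.7 ± 1.74 in the Fc(mML1)B3 mice on the standard diet (n = 7) put it below Cldn12 with no overlap. Over the 4 groups the highest mean CPM of Cldn1 was 2.38 times the lowest, the widest span of the 9, against 1.81 for Ocln, 1.60 for Cldn5, 1.43 for Tjp1, 1.41 for Cldn12 and 1.13 to 1.28 for the other 4.

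**Figure D1:**
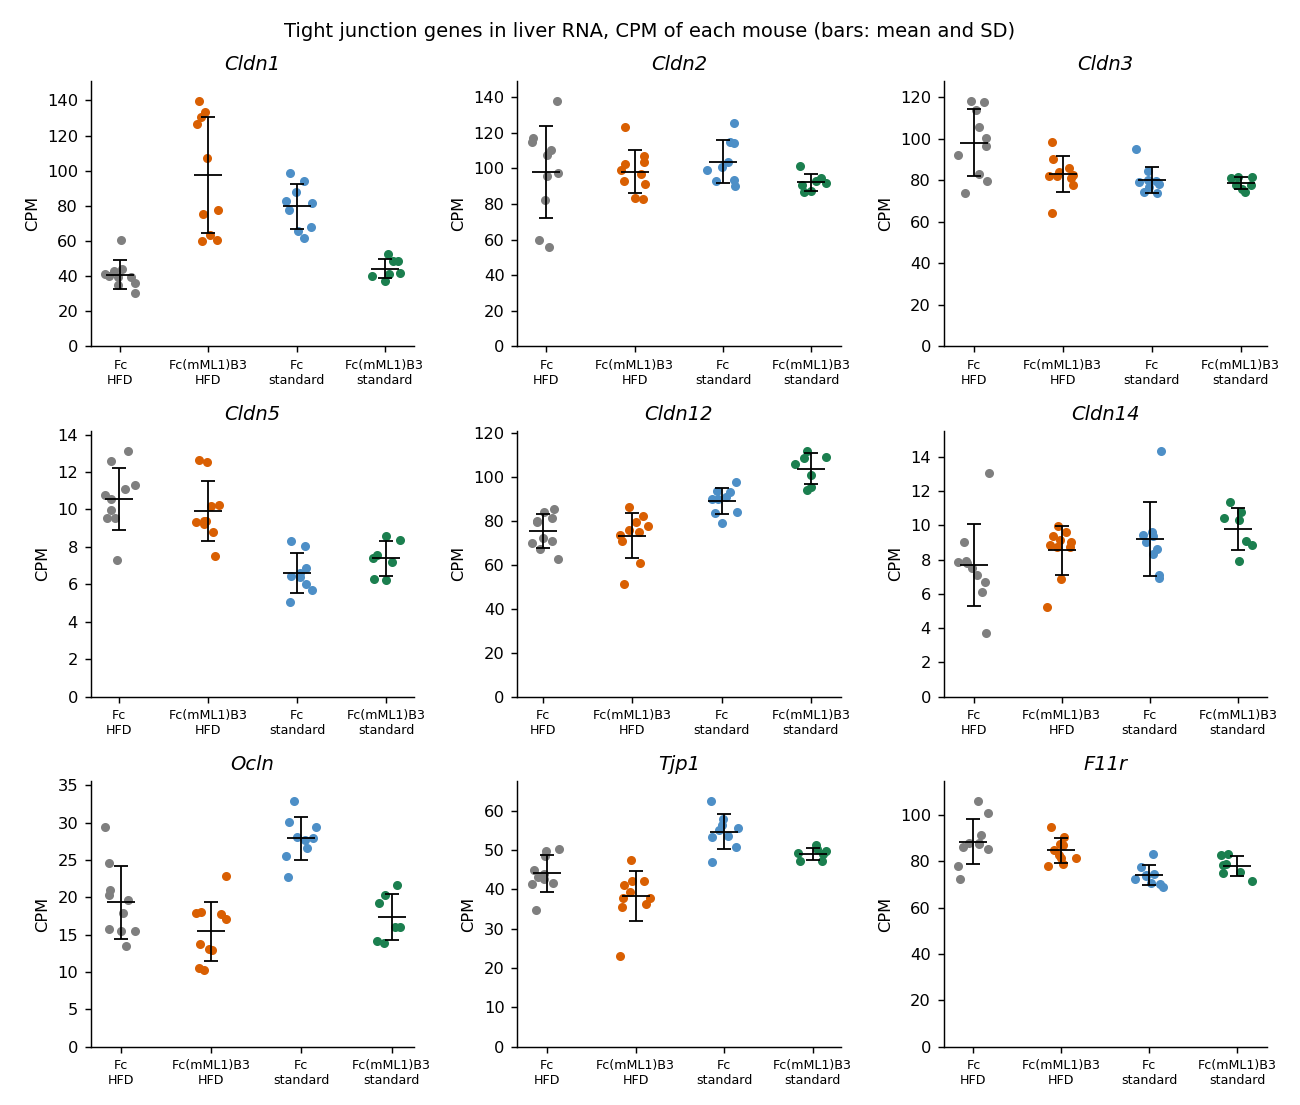
CPM of each of the 9 tight junction genes (y axis, from 0) in every mouse of the 4 groups (x axis), with bars at the mean and the SD. Cldn1 is low in the Fc mice on HFD (30.5 to 60.7 CPM) and in the Fc(mML1)B3 mice on the standard diet (37.3 to 52.5 CPM) and high in the other 2 groups.

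Cldn1, the sealing claudin, differed between Fc and Fc(mML1)B3 in both experiments and in opposite directions. Under HFD the Fc mice had 30.5, 39.8 and 60.7 CPM as the lowest, median and highest value, and the Fc(mML1)B3 mice had 60.2, 92.2 and 139.8 CPM. Of the 10 Fc(mML1)B3 mice 8 lay above every Fc mouse, and the other 2 lay just below the highest Fc mouse, which itself stood apart from the rest of its group, the next at 44.1 CPM. The log2 fold change was 1.26 ± 0.165 (SE), or 2.39-fold. Under the standard diet the Fc mice had 61.6, 81.9 and 98.4 CPM, and the Fc(mML1)B3 mice had 37.3, 41.6 and 52.5 CPM. Here the groups did not overlap, and all 7 Fc(mML1)B3 mice lay below all 9 Fc mice. The log2 fold change was −0.85 ± 0.0972, or 1.80-fold lower. The difference between both log2 fold changes, standard diet minus HFD, was −2.09 ± 0.216.

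Ordered by their mean, the 4 groups fell into a lower and an upper pair for Cldn1. The Fc mice on HFD (40.9 ± 8.02 CPM, SD, n = 10) and the Fc(mML1)B3 mice on the standard diet (44.3 ± 5.63 CPM, n = 7) did not differ beyond their spread, and neither did the Fc mice on the standard diet (79.8 ± 12.9 CPM, n = 9) and the Fc(mML1)B3 mice on HFD (97.5 ± 33.2 CPM, n = 10). The spread was widest in the last of these groups, where 5 mice lay between 60.2 and 77.4 CPM and 5 between 107.0 and 139.8 CPM. The 4 mice of its first number series were all in the lower part, at 69.3 ± 8.40 CPM, and 5 of the 6 of the second series were in the upper part, the whole series at 116.3 ± 29.6 CPM. Against all Fc mice, the log2 fold change was 0.77 ± 0.125 with mice 1 to 4 alone and 1.51 ± 0.149 with mice 5 to 10 alone, so the direction was the same in each series. With mice 1 to 4 of both groups it was 0.72 ± 0.176, and with mice 5 to 10 of both groups 1.54 ± 0.161, the Fc mice standing at 41.8 ± 13.2 CPM (n = 4) and 40.3 ± 3.21 CPM (n = 6). The difference in size between the series, and their part in the result, was not tested. On the standard diet, with the 4 Fc mice of the number series shared with the Fc(mML1)B3 mice, the log2 fold change was −0.70 ± 0.0986.

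**Figure D2:**
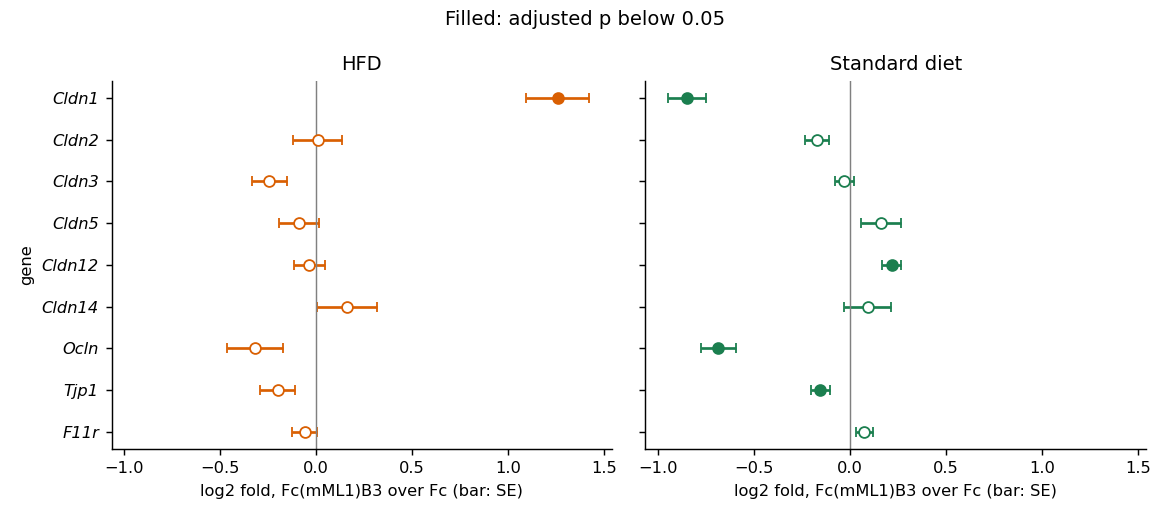
Log2 fold change of Fc(mML1)B3 over Fc with its standard error (x axis) for the 9 genes (y axis), under HFD on the left and the standard diet on the right, with filled points where the adjusted p of edgeR was below 0.05. The 9 genes were named with these contrasts known, so the filling is a description and adds no support. Cldn1 sits at 1.26 under HFD and at −0.85 under the standard diet, and the other 8 genes lie within 0.32 of 0 under HFD.

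Among the 9 genes, the quasi-likelihood test of edgeR called 1 under HFD (adjusted p below 0.05 over all genes), Cldn1, which was higher. It called 14.8% of the 13299 genes tested there, 8.14% as higher. On the standard diet it called 4 of the 9, Cldn1, Ocln and Tjp1 lower and Cldn12 higher, where it called 16.1% of 13570 genes, 7.55% as lower and 8.56% as higher. The test of the difference between the experiments called 1, Cldn1, and 9.06% of 14105 genes, 4.4% with a value below 0 as for Cldn1. At the limits given with the study's plots, an adjusted p below 0.1 with a fold above 2 under HFD and below 0.05 with a fold above 1.5 on the standard diet, Cldn1 was called in the first (1.34% of all genes) and Cldn1 and Ocln in the second (2.36%). The study's text gives the HFD limits for the standard diet too, and there no member reached a fold of 2. Since these contrasts were known when the 9 genes were named, nothing is read from the counts. The median log2 fold change of the 9 was −0.06 under HFD and −0.03 under the standard diet, beside −0.01 over all genes in both. On the standard diet Cldn1 and Ocln were lower without overlap between Fc and Fc(mML1)B3, as were 1.14% of all genes. Under HFD each of the 9 overlapped, where 0.962% of all genes did not.

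Ocln, the membrane-spanning protein occludin, was lower with Fc(mML1)B3 under the standard diet. The Fc mice had 22.8, 27.9 and 32.9 CPM as the lowest, median and highest value, and the Fc(mML1)B3 mice had 13.9, 16.0 and 21.7 CPM. All 7 Fc(mML1)B3 mice lay below all 9 Fc mice, with a log2 fold change of −0.69 ± 0.0928, or 1.61-fold lower. Under HFD the values were 13.5, 18.7 and 29.5 CPM with Fc and 10.3, 15.5 and 22.8 CPM with Fc(mML1)B3. These groups overlapped widely, with a log2 fold change of −0.32 ± 0.148. Within the number series it was −0.65 ± 0.230 with mice 1 to 4 of both groups and −0.12 ± 0.155 with mice 5 to 10. The difference between the log2 fold changes of the experiments was −0.35 ± 0.195. Both values of Ocln lay below 0, where those of Cldn1 had opposite signs.

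Tjp1, the scaffold ZO-1, had 47.0, 55.0 and 62.5 CPM in the Fc mice and 47.1, 49.2 and 51.3 CPM in the Fc(mML1)B3 mice on the standard diet. All 7 Fc(mML1)B3 mice were below the Fc median but none was below the lowest Fc mouse. The log2 fold change was −0.16 ± 0.0495, and its call was lost in 8 of the 16 fits that left out 1 library and with the libraries of the shared number series alone (−0.11 ± 0.0555). Under HFD the log2 fold change was −0.20 ± 0.0928 and was not called. One Fc(mML1)B3 mouse on HFD stood apart at 23.2 CPM, with the next at 35.6 CPM.

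Cldn12, a claudin without the PDZ-binding tail of the classic members, went the other way under the standard diet. The Fc mice had 79.1, 89.9 and 97.6 CPM, and the Fc(mML1)B3 mice had 93.8, 105.9 and 111.7 CPM. Of the 7 Fc(mML1)B3 mice 5 lay above every Fc mouse, with a log2 fold change of 0.22 ± 0.0496, or 1.16-fold. With the libraries of the shared number series alone the value was 0.20 ± 0.0588, and the call was lost. Under HFD Cldn12 had a log2 fold change of −0.03 ± 0.0814 and overlapping groups, at 62.5 to 85.2 CPM with Fc and 51.3 to 86.3 CPM with Fc(mML1)B3.

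The other 5 genes were not called in either treatment contrast. Cldn3, a barrier claudin and the most abundant of the 9 per length, had 74.0, 98.6 and 118.4 CPM with Fc and 64.4, 82.3 and 98.5 CPM with Fc(mML1)B3 under HFD. All 10 Fc(mML1)B3 mice were below the Fc median, although the groups overlapped, and the log2 fold change was −0.24 ± 0.0901. With the standard diet it was −0.03 ± 0.0480. Cldn2, the pore-forming claudin, had a log2 fold change of 0.01 ± 0.128 under HFD, where the Fc mice ranged from 55.7 to 137.9 CPM, and of −0.17 ± 0.0634 under the standard diet. For F11r, or JAM-A, the values were −0.06 ± 0.0653 and 0.07 ± 0.0444. Cldn5, the claudin of endothelial junctions, and Cldn14, a claudin known for restricting cations, were the least abundant in reads, with at least 116 and 86 reads in every library. Their log2 fold changes were −0.09 ± 0.105 and 0.16 ± 0.155 under HFD and 0.16 ± 0.104 and 0.09 ± 0.122 under the standard diet.

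Markers of other liver cells were measured beside these results, and their part in them was not tested. Under HFD, edgeR called none of the 8 hepatocyte genes (1 at an unadjusted p below 0.05, 0 by DESeq2 and 1 by limma-voom). Their summed level ranged from 84890 to 150300 CPM with Fc and from 76010 to 158000 CPM with Fc(mML1)B3. Under the standard diet 2 of the 8 were called, both higher, Cps1 (log2 fold change 0.19) and Serpina1c (0.17), with sums of 112200 to 141800 and 120400 to 135800 CPM. Of the 7 bile duct genes tested, 1 was called under the standard diet, Sox9 (−0.50). All 7 had values below 0 there, with a median log2 fold change of −0.25, among them Krt19 (−0.51) and Cftr (−0.68), which were not called. The bile duct sums ranged from 247.5 to 516.2 CPM with Fc and from 196.9 to 425.6 CPM with Fc(mML1)B3. Of the 8 stellate genes 2 were called there, Des (−0.36) and Pdgfrb (−0.51), and 7 of the 8 had values below 0 (median −0.20), with sums of 196.2 to 271.5 and 206.8 to 230.7 CPM. Of the 10 endothelial genes 1, Tek (0.32), was called under HFD, with sums of 295.9 to 330.5 and 275.3 to 401.2 CPM. Under HFD edgeR called none of the 7 bile duct genes (1 at an unadjusted p below 0.05, 0 by DESeq2 and 1 by limma-voom). The bile duct sums there were 187.1 to 871.8 CPM with Fc (median 591.2) and 186.5 to 853.4 CPM with Fc(mML1)B3 (median 336.3). Of the 8 stellate genes edgeR called none under HFD (1 at an unadjusted p below 0.05, 0 by DESeq2 and 2 by limma-voom), with sums of 209.1 to 341.1 and 212.3 to 300.1 CPM. Of the 8 macrophage genes edgeR also called none under HFD, although 4 had an unadjusted p below 0.05, Marco, Timd4, Cd68 and Adgre1, all with values below 0 (log2 fold changes −2.06, −1.34, −0.37 and −0.28), and DESeq2 called 1, Marco, and limma-voom 0. Clec4f (0.57) and Vsig4 (0.27) had values above 0. The macrophage sums were 242.2 to 772.0 CPM with Fc (median 409.6) and 241.0 to 561.5 CPM with Fc(mML1)B3 (median 461.1).

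The groups were also compared across the experiments, in contrasts that share their samples with the treatment contrasts. Among the Fc mice 7 of 9 were called, where edgeR called 49.0% of all genes, 23.9% as higher and 25.2% as lower. Cldn1 (log2 fold change, standard diet over HFD, 0.95 ± 0.106), Ocln (0.51 ± 0.114), Tjp1 (0.30 ± 0.0639) and Cldn12 (0.23 ± 0.0608) were higher on the standard diet, and Cldn5 (−0.69 ± 0.106), Cldn3 (−0.30 ± 0.0846) and F11r (−0.27 ± 0.0619) were lower. Of the 9, Cldn1 alone was higher without overlap of the groups, as were 8.19% of all genes. Among the Fc(mML1)B3 mice 4 of 9 were called, where 38.2% of all genes were, 19.1% in each direction. Cldn1 was lower on the standard diet (−1.15 ± 0.181), and so was Cldn5 (−0.44 ± 0.106), whereas Cldn12 (0.48 ± 0.0825) and Tjp1 (0.34 ± 0.0953) were higher. Cldn12 was higher and Cldn1 lower without overlap here, as were 7.5% and 2.58% of all genes. Cldn5 was the member with the largest fall on the standard diet in the Fc mice, from 10.6 ± 1.65 CPM (n = 10) to 6.60 ± 1.05 CPM (n = 9). In that contrast 2 of the 10 endothelial markers were called higher and 1 lower. Their values lay below 0 for 7 and above 0 for 3, with a median log2 fold change of −0.03. The part of endothelial cells in the fall of Cldn5 was not tested. Of the 7 bile duct markers 4 were lower in that contrast, and their part in the fall of Cldn3 and F11r was not tested. Stellate markers went both ways there, with 2 of 8 higher and 4 lower. In the Fc(mML1)B3 mice 3 of the 7 bile duct markers were lower. Among the 8 stellate markers 2 were higher and 3 lower, and among the 10 endothelial markers 1 was higher and 1 lower. The part of these cells in the member values was not tested.

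Of the 87 other junction genes, 72 could be tested under HFD and 71 under the standard diet. The fit called 13 of the 72 under HFD, 6 higher and 7 lower, or 18.1% beside 14.8% of all genes. On the standard diet it called 22 of 71, 6 higher and 16 lower, or 31% beside 16.1%. With the Fc mice of the number series shared with Fc(mML1)B3 alone, 10 of 72 were called on the standard diet. That fit had fewer mice and called 942 of all 13735 genes. Of the genes named in the following for that diet, Mllt4, Mpp5, Clmp, Lin7a, Llgl2, Pkp2, Vcl and Pvrl2 were not called in that fit, with values of the same sign. With mice 1 to 4 of both HFD groups alone 4 of 72 were called, where 551 of all 13373 genes were. With mice 5 to 10 alone 5 of 72 were called, where 853 of all 13180 genes were. These fits had fewer mice too. Among the genes named for HFD, Arhgef2, Arhgef18, Marveld2, Clmp and Cldnd1 were called in neither of these fits, with values of the same sign. The median log2 fold change of the list was −0.03 and −0.07, beside −0.01 over all genes in both contrasts.

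Genes of the cytoplasmic plaque, the layer of scaffold proteins that Tjp1 belongs to, included Tjp3 (ZO-3) and Cgn (cingulin, which links the plaque to actin and myosin), which moved in the directions of Cldn1 in both experiments. Tjp3 had 12.3 to 22.6 CPM in the Fc mice and 19.0 to 43.2 CPM in the Fc(mML1)B3 mice on HFD. It rose with a log2 fold change of 0.95 ± 0.153 (edgeR adjusted p = 0.000178), and 8 of the 10 mice lay above every Fc mouse. With the standard diet all 7 Fc(mML1)B3 mice lay below all 9 Fc mice, at 11.9 to 16.7 against 18.2 to 27.6 CPM. There it fell by a log2 fold change of 0.60 ± 0.0872 (edgeR adjusted p = 7.94e-05). The difference between both was −1.54 ± 0.198 (edgeR adjusted p = 7.38e-07). Exons of Tjp3 overlap those of Apba3 on the other strand, so its reads are uncertain in part. Cgn rose under HFD (0.59 ± 0.146, edgeR adjusted p = 0.00779) and fell under the standard diet (−0.34 ± 0.0647, edgeR adjusted p = 0.00113), with a difference of −0.92 ± 0.184 (edgeR adjusted p = 0.000702). As with Cldn1, the HFD values differed between the number series. With mice 1 to 4 alone Tjp3 was at 0.50 ± 0.147 (edgeR adjusted p = 0.0551) and Cgn at 0.19 ± 0.159 (edgeR adjusted p = 0.453), while with mice 5 to 10 alone they were at 1.20 ± 0.128 (edgeR adjusted p = 7.17e-06) and 0.82 ± 0.139 (edgeR adjusted p = 0.000691). With mice 1 to 4 of both groups Tjp3 was at 0.38 ± 0.170 (edgeR adjusted p = 0.212) and Cgn at 0.13 ± 0.166 (edgeR adjusted p = 0.677), and with mice 5 to 10 of both they were at 1.26 ± 0.139 (edgeR adjusted p = 0.000134) and 0.84 ± 0.149 (edgeR adjusted p = 0.00386). Neither was called with mice 1 to 4, in fits with only 4 Fc(mML1)B3 mice, and all these values were above 0. The difference between the series was not tested.

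**Figure D3:**
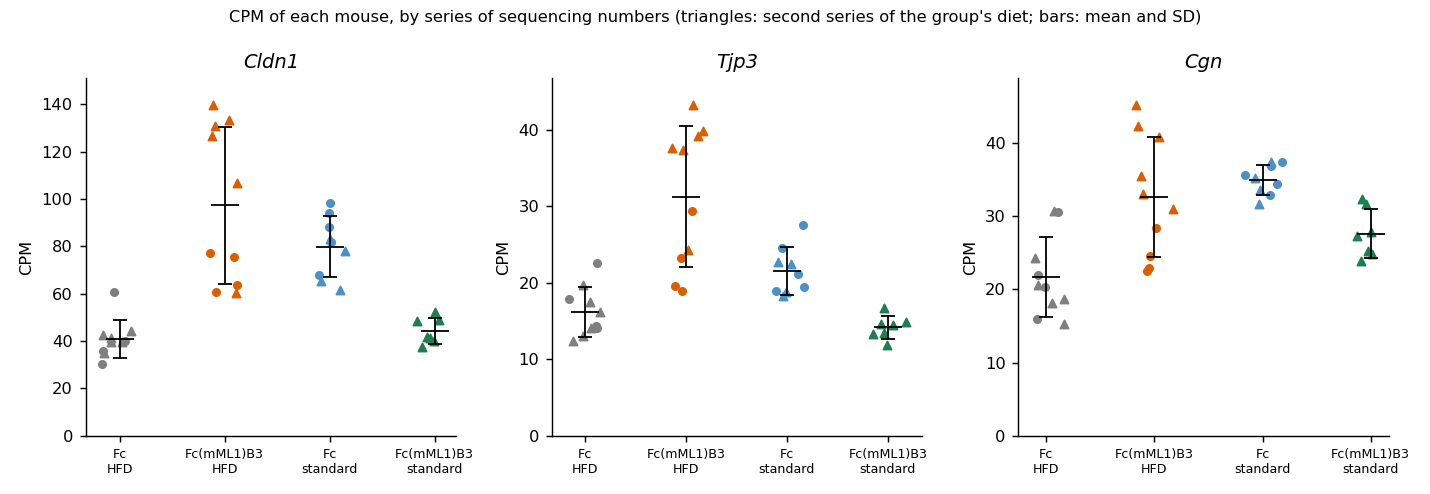
CPM (y axis, from 0) of Cldn1, Tjp3 and Cgn in every mouse of the 4 groups (x axis), with bars at the mean and the SD. Triangles mark mice 5 to 10 of both groups on HFD and, under the standard diet, mice 6 to 9 of Fc and all Fc(mML1)B3 mice, and among the Fc(mML1)B3 mice on HFD 5 of the 6 triangles lie above all 4 circles for Cldn1 and Tjp3, and all 6 do for Cgn.

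Under HFD the plaque list had 5 of 19 genes called, 3 higher and 2 lower. Besides Tjp3 and Cgn, the called plaque genes with the smallest p were Mpdz (MUPP1, a scaffold of many PDZ domains; −0.58 ± 0.0962, edgeR adjusted p = 0.000258) and Arhgef2 (GEF-H1, a nucleotide exchange factor held at the junction; −0.55 ± 0.148, edgeR adjusted p = 0.0138), both lower. The remaining call, Arhgef18 (0.25 ± 0.0682, edgeR adjusted p = 0.0147), was higher. Under the standard diet 8 of 18 were called, 7 of them lower, among them, besides Tjp3 and Cgn, Mllt4 (afadin; −0.19 ± 0.0539, edgeR adjusted p = 0.0215). The one higher was Mpp5 (0.20 ± 0.0671, edgeR adjusted p = 0.0486). Arhgef18 and Mpp5 were named after their values were seen.

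The other membrane proteins of the junction had 2 of 12 called under HFD, Marveld2 (tricellulin, found where 3 cells meet; −0.24 ± 0.0799, edgeR adjusted p = 0.0415) and Clmp (a cell adhesion molecule; −0.75 ± 0.251, edgeR adjusted p = 0.0452). On the standard diet 5 of 12 were called. Marveld2 (−0.28 ± 0.0677, edgeR adjusted p = 0.00781), Clmp (−0.75 ± 0.184, edgeR adjusted p = 0.00826) and Cxadr (the coxsackie and adenovirus receptor; −0.26 ± 0.0544, edgeR adjusted p = 0.00285) were lower. Marveld2 and Clmp were thus lower with Fc(mML1)B3 in both experiments. Marveld1, which like Ocln carries a MARVEL membrane domain, was the junction gene with the largest change under the standard diet. It rose from 36.8 ± 4.61 CPM (n = 9) to 67.6 ± 5.41 CPM (n = 7), a log2 fold change of 0.88 ± 0.0738 (edgeR adjusted p = 1.7e-07). The Fc mice ranged from 27.1 to 42.4 CPM and the Fc(mML1)B3 mice from 60.1 to 73.3 CPM. Under HFD Marveld1 had a value of the same sign, 0.22 ± 0.0768 (edgeR adjusted p = 0.0521). It was not called there by edgeR but was by DESeq2 and limma-voom.

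Of the 20 other claudins 14 were too low to test, with at most 15 reads in any library, and 4 of them had no reads in all 36. That list held 1 called gene under HFD, the claudin-domain gene Cldnd1 (0.21 ± 0.0665, edgeR adjusted p = 0.0356). With the standard diet edgeR, DESeq2 and limma-voom each called none of the 6, with none at an unadjusted p below 0.05. Cldn4, a gene on the minus strand that lies 39280 bases from Cldn3, was at 2.55 ± 1.31 CPM in the Fc mice on HFD, where Cldn3 was at 98.2 ± 16.0 CPM. Cldn1, Cldn2, Cldn3 and Cldn12 together held between 86.2% and 94.6% of the reads of the 24 claudin genes in each library.

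Among the polarity genes, whose proteins place the junction along the cell side, Prkcz (atypical protein kinase C zeta) was called under HFD (−0.34 ± 0.0912, edgeR adjusted p = 0.0142), 1 of 16. Under the standard diet 4 of 16 were called, Lin7c (0.37 ± 0.0476, edgeR adjusted p = 2.49e-05) and Lin7a (0.23 ± 0.0695, edgeR adjusted p = 0.0258) higher and Dlg1 (−0.22 ± 0.0417, edgeR adjusted p = 0.00129) and Llgl2 (−0.19 ± 0.0446, edgeR adjusted p = 0.00731) lower. In the neighbouring adherens junctions, gap junctions and desmosomes, 4 of 19 were called under HFD. The nectin gene Pvrl1 (0.53 ± 0.112, edgeR adjusted p = 0.00239) and Pkp2 (plakophilin-2; 0.29 ± 0.0708, edgeR adjusted p = 0.00674) rose, and the desmosomal genes Dsc2 (−0.45 ± 0.0873, edgeR adjusted p = 0.00115) and Dsp (−0.38 ± 0.127, edgeR adjusted p = 0.0449) fell. On the standard diet 5 of 19 were called there, among them Cdh1 (E-cadherin; −0.36 ± 0.0681, edgeR adjusted p = 0.00114), Pkp2 (−0.21 ± 0.0455, edgeR adjusted p = 0.00361) and Vcl (vinculin; −0.20 ± 0.0516, edgeR adjusted p = 0.0116) lower and Pvrl2 (0.34 ± 0.0993, edgeR adjusted p = 0.025) higher.

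**Figure D4:**
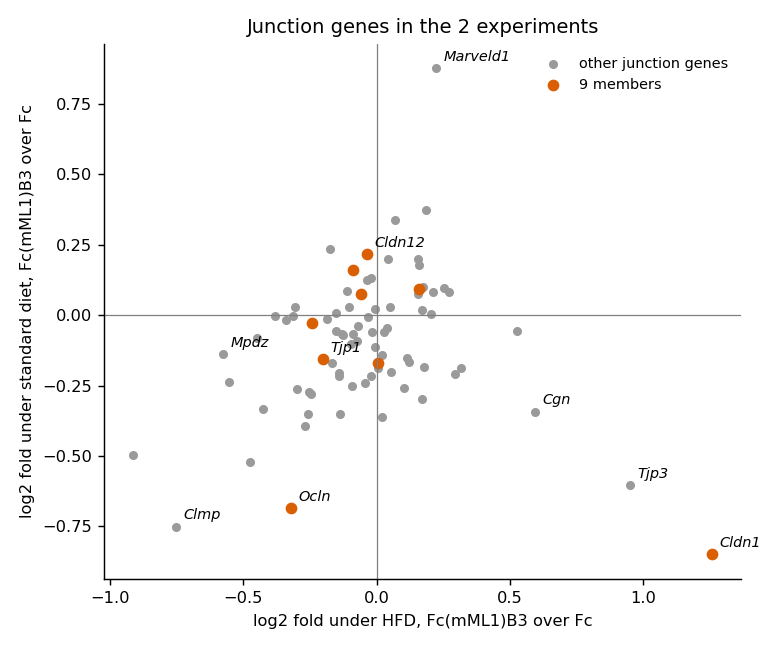
Log2 fold change of Fc(mML1)B3 over Fc under HFD (x axis) and under the standard diet (y axis) for the 9 members and 71 other junction genes tested in both. Cldn1 (1.26 and −0.85), Tjp3 (0.95 and −0.60) and Cgn (0.59 and −0.34) lie at the lower right, and Ocln (−0.32 and −0.69) lies at the lower left.

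Over all genes, 13200 were tested in both treatment contrasts, and 118 of them (0.894%) were called higher under HFD and lower under the standard diet, as Cldn1, Tjp3, Cgn and Pkp2 were. The reverse held for 74 genes (0.561%), and 300 (2.27%) were called in the same direction.

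The genes whose RNA was most like that of Cldn1 over the 36 libraries, among 14104 genes and by the correlation of log2 CPM, were Insig2 (r = 0.944), Clpx (0.939), Trim2 (0.929), Pnkd (0.918) and Pde9a (0.907). Insig2 encodes an endoplasmic reticulum protein that holds back the sterol-sensing machinery, and Clpx a chaperone of mitochondrial protein breakdown. Once the mean of each group was taken out, the order was Clpx (r = 0.854), Caprin1 (0.832), Tjp3 (0.83), Slc16a1 (0.822) and Trim2 (0.81). Tjp3 is therefore the one junction gene among the closest, and its r with Cldn1 within the groups was 0.658 in the Fc mice and 0.877 in the Fc(mML1)B3 mice on HFD, and 0.865 and 0.883 on the standard diet. Within the 7 Fc(mML1)B3 mice on the standard diet the likeness was not seen for some of the other genes named, with r of −0.335 for Insig2, −0.229 for Pde9a and −0.426 for Slc16a1. Cgn came further down, at place 63 over the libraries (r = 0.783) and place 76 without the group means (0.68). Within the Fc(mML1)B3 mice on the standard diet its r was 0.392. These values describe libraries that share their depth, their normalization and, in the HFD groups, the number series, and they carry no test. Insig2 had a log2 fold change of 1.42 ± 0.209 under HFD and −1.09 ± 0.0861 under the standard diet, and Clpx had 1.67 ± 0.163 and −0.79 ± 0.109.

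Without the group means, r of the other members with Cldn1 was 0.494 for Tjp1, 0.47 for Cldn12, 0.415 for Ocln, 0.337 for Cldn2, 0.11 for Cldn3, 0.096 for Cldn14, 0.083 for Cldn5 and −0.055 for F11r. By that measure, Tjp1 came at place 720 and F11r at place 8047 of the 14104 genes. Within the Fc(mML1)B3 mice on HFD r was higher for some, at 0.825 for Cldn2, 0.72 for Cldn12 and 0.618 for Tjp1, and within the Fc mice on HFD it was 0.651 for Ocln. Over the libraries with the group means in place, Cldn2 was the closest member, with r = 0.317.

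**Figure D5:**
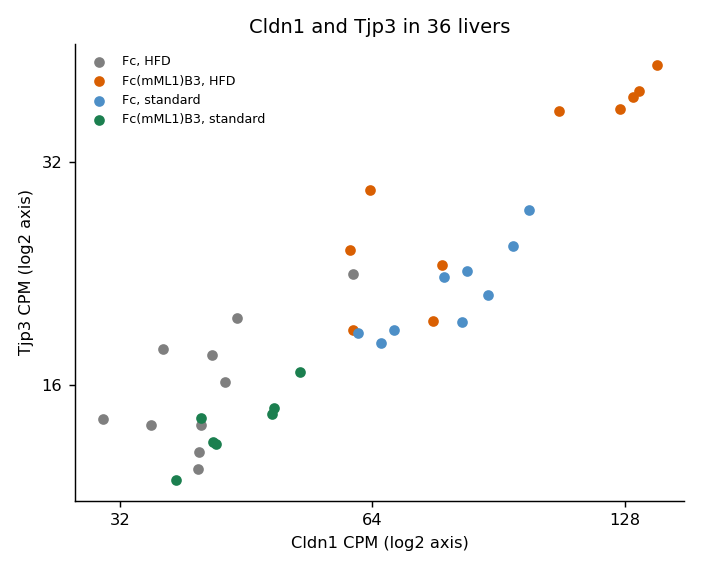
CPM of Tjp3 (y axis) against CPM of Cldn1 (x axis), both on log2 axes, for the 36 livers coloured by group. The points rise together from the Fc mice on HFD and the Fc(mML1)B3 mice on the standard diet at the lower left to 5 of the Fc(mML1)B3 mice on HFD at the upper right (Cldn1 from 107.0 to 139.8 CPM).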

How the data were processed

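Liver RNA of 36 mice was sequenced from a strand-keeping kit on a DNBSEQ-G400. The deposited values are raw counts, which the authors made with fastp for trimming and Bowtie2 2.4.5 against ribosomal RNA, before aligning to mm10 with STAR 2.7.10a and counting with featureCounts of Subread 2.0.3. Per the file headers, both ends of a pair had to align, no strand option was set, and each end counts as 1 read. Reads with several alignments were left out.

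Groups came from the sample titles. Total reads were 14949035 to 28466853 per library, and the 147 pairs of libraries of 1 group differed beyond counting noise (chi-square per degree of freedom at least 6.305). Each contrast was fitted over all genes kept by filterByExpr with edgeR 4.0.16 (R 4.3.3), TMM normalization and the quasi-likelihood F-test, with Benjamini-Hochberg adjustment, and called at an adjusted p below 0.05. The SE of a log2 fold change is its absolute value over the square root of F. CPM uses TMM over the 36 libraries, RPKM divides CPM by the exonic length, and log2 CPM has a prior count of 2. The members and lists were chosen with earlier results of these data known. The text names all 9 members, up to 4 called genes with the smallest p of each list and treatment contrast, called cell type markers, and the 5 genes most like Cldn1 by each measure. Some genes that these rules would name are not reported here. Cldn4 and the motifs were chosen after their values or sequences were seen. Promoters of all 9 members were matched by symbol in a RefSeq table. The fits were tested on simulated data. Alternatives were DESeq2 1.42.0, limma-voom (limma 3.58.1), upper-quartile and RLE scaling, other filters, the limits given with the study's plots (adjusted p below 0.1 and fold above 2 under HFD, below 0.05 and above 1.5 under the standard diet), number series, number series within both HFD groups (chosen after seeing the data), each library left out and a replicate block.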

Additional observations from a re-analysis of the deposited data

Results flagged for a closer look

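Among the 36 sets of values checked (9 genes in 4 groups), 3 held a mouse far from the others of its group, where chance flags about 1 in 20. Cldn1 was highest in Fc mouse 1 on HFD, at 60.71 CPM, with the next at 44.08 CPM. Cldn14 was highest in Fc mouse 5 on the standard diet, at 14.35 CPM, with the next at 9.637 CPM. Tjp1 was lowest in Fc(mML1)B3 mouse 2 on HFD, at 23.17 CPM, with the next at 35.59 CPM.

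By the interaction test of edgeR, at an adjusted p below 0.05, 8 of 72 other junction genes and 1 of the 9 members, Cldn1, responded to Fc(mML1)B3 differently in the 2 experiments, where 9.06% of all genes did. These shares are near that of all genes, and the values are given for single genes and not as a result about the list. Of the 8, 3 had a value above 0 and 5 below. The log2 fold change under the standard diet minus that under HFD was −2.0897 for Cldn1 and, among the others, −1.5371 for Tjp3, −0.9174 for Cgn, −0.5667 for Pvrl1, −0.4863 for Pkp2, 0.3851 for Dsc2, 0.4548 for Mpdz and 0.6689 for Marveld1. For Cldn1 the value is a description, since the gene was named with its pattern known. Diet and dosing go with the experiment and cannot be told apart, and how the libraries were divided over sequencing runs is not given.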

How the results depend on the processing

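Since the members were named with their differences known, the values of the members over refits of the same libraries are a description and add no support. The log2 fold change of Cldn1 ranged over the alternatives from 0.7166 to 1.5362 under HFD and from −0.8782 to −0.7027 under the standard diet, and with each library left out from 1.189 to 1.3353 and from −0.895 to −0.808. The call of Tjp1 there was lost in 8 of 16 fits without 1 library, without the filter for low counts, with the replicate block and in the number series shared with the Fc(mML1)B3 mice. That of Cldn12 was lost in that series, and both were lost at the study's limits. No result changed its direction past the threshold.

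With the limits given with the study's plots, 178 genes, 1 member and 0 other junction genes were called under HFD (by edgeR, against 1972, 1 and 13) and 320, 2 and 3 under the standard diet (against 2186, 4 and 22). Limma-voom called 3039 genes under HFD and 2026 in the interaction. With mice 1 to 4 of Fc(mML1)B3 alone, 705 genes and 7 other junction genes were called under HFD, and with the shared series alone 942 genes, 2 members and 10 other junction genes under the standard diet. With mice 1 to 4 of both groups 551 genes and 4 other junction genes were called under HFD, and with mice 5 to 10 of both groups 853 and 5, in fits chosen after seeing the data. These settings have fewer mice. Members called under HFD rose to 2, with Cldn3, under upper-quartile scaling and without Fc mouse 10. Upper-quartile scaling turned the split under HFD from 889 lower and 1083 higher to 1075 and 865, that of the Fc mice across diets from 3398 and 3222 to 4769 and 2454, and that of the Fc(mML1)B3 mice from 2608 and 2598 to 3605 and 2043. It moved the median of all genes to −0.1333 and −0.1078 in the latter contrasts, and Cldn2 in the Fc mice then stood at −0.0173 in place of 0.0717.

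Leaving out 1 library at a time, the number of genes called ranged from 1555 to 2848 under HFD and from 1730 to 2230 under the standard diet, of members from 1 to 2 and from 3 to 5, and of other junction genes from 9 to 17 and from 17 to 22. In the interaction the ranges were 1059 to 1540, 1 to 1 and 7 to 10. Across diets they were 6066 to 6751, 7 to 8 and 41 to 46 in the Fc mice, and 4489 to 5397, 4 to 5 and 21 to 31 in the Fc(mML1)B3 mice.

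Mice of the 2 groups share numbers in the titles. The deviations of same-numbered mice correlated over 0.1 in 2 of 10 pairs under HFD (−0.657 to 0.368, median −0.0612) and in 0 of 7 under the standard diet. A shared deviation was thus not seen in most pairs. Whether the numbers pair the mice in some other way cannot be read from these correlations. With the replicate block, 1294 genes, 1 member and 9 other junction genes were called under HFD and 1296 genes, 3 members and 14 other junction genes under the standard diet. Among the 9 genes, reads were fewest for Cldn5 and Cldn14.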
